A study of Mus musculus with 18 samples.

Results

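Whether a stroke changes the response of aged brain macrophages to bexarotene was measured as a difference of differences. The bexarotene response with stroke (bexarotene over vehicle) was set against the bexarotene response without stroke, gene by gene, in 12 of the 18 libraries of the series. All 12 came from male WT mice of 18 to 20 months, 3 libraries in each of 4 groups: aged stroke bexarotene, aged stroke vehicle, aged bexarotene and aged vehicle. Ischemic stroke was made by middle cerebral artery occlusion (MCAo), and bexarotene at 5 mg/kg, or its vehicle of 3% DMSO in saline, was injected into the peritoneum. The first dose followed surgery by 24 hours, further doses came once a day for 2 days, and the brain was collected on day 3. For the mice without stroke, the sources used here name no surgery. RNA came from dissociated whole brain after removal of Ly6G-positive cells and selection for CD11b, a surface protein of microglia, macrophages and neutrophils. The other 6 libraries, from young mice of 2 to 4 months with bexarotene or vehicle and no stroke, entered the shared model and were used to choose drug-responsive genes in libraries that neither aged response uses.

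Bexarotene activates the retinoid X receptor, RXR, which is a nuclear receptor that binds DNA mostly as a pair with another receptor. With the liver X receptor (LXR), which senses oxysterols, it drives export of cholesterol from macrophages, and LXR pairs respond to a ligand of either partner. With peroxisome proliferator-activated receptors (PPAR) it regulates fatty acid use, and with retinoic acid receptors (RAR) it mediates the actions of retinoic acid. After a stroke, resident microglia and macrophages that derive from blood monocytes take up lipid-rich debris in the injured tissue.

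Stroke libraries were deeper, with 16206144 to 29359943 counts against 9346466 to 11852638 counts without stroke. The spread between libraries of a group was alike: the median SD of log2 CPM over 9341 genes with at least 10 CPM (counts scaled to a library total of 1000000) was 0.154 in stroke bexarotene, 0.145 in stroke vehicle, 0.146 in bexarotene and 0.147 in vehicle libraries. The first principal component of the 12 libraries held 63.9% of the variance and separated stroke from no stroke. Levels of cell type markers also differed with stroke. The microglial receptor gene P2ry12 had 1659 to 2690 CPM in stroke bexarotene and 2171 to 2939 CPM in stroke vehicle libraries, against 8014 to 9900 CPM in bexarotene and 9850 to 10592 CPM in vehicle libraries. The summed level of 16 monocyte and macrophage markers was 8970 to 18326 CPM in stroke bexarotene and 10494 to 16696 CPM in stroke vehicle libraries, against 2127 to 2145 CPM in bexarotene and 1515 to 2541 CPM in vehicle libraries. In bulk RNA, fewer cells of a type and less RNA per cell cannot be told apart, so a response here is that of the whole CD11b-selected mixture.

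Bexarotene changed fewer genes with stroke than without it, yet no single gene passed the test of the difference. With stroke, 8 genes rose (0.0515% of the 15528 tested) and 1 fell (0.00644%), together 0.058% (adjusted p under 0.05, edgeR quasi-likelihood test with Benjamini-Hochberg adjustment over all genes). Without stroke, 37 rose (0.238%) and 3 fell (0.0193%), together 0.258%. The difference of the responses was called for 0 genes (0% of those tested), and 638 genes (4.11%) had an unadjusted p under 0.05. Of these 638, 362 (2.33% of genes tested) were lower and 276 (1.78%) higher with stroke. DESeq2 called 9 genes, all with a negative difference. Leaving out 1 library moved the number of genes called with stroke between 1 and 17 and without stroke between 9 and 41, and limma voom called 29 with stroke and 18 without, so the numbers of calls alone do not show how the sizes compare.

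The size was therefore read over the genes that bexarotene changed in the young mice, 65 raised and 14 lowered (0.419% and 0.0902% of genes tested). Young mice had no stroke, so this choice can favour genes that respond without one. The 65 raised genes had a median log2 fold change of 0.39 with stroke (quartiles 0.22 and 0.74) and 0.64 without it (quartiles 0.43 and 1.12), against medians of 0.004 and -0.004 over all genes tested. The log2 fold change was lower with stroke for 51 of the 65 (78.5%, against 49.7% of all genes tested), and the median difference was -0.23. At an unadjusted p under 0.05, 18 of the 65 had a lower response with stroke and 0 a higher one, beside 2.33% and 1.78% of all genes. Every stroke bexarotene library lay above every stroke vehicle library for 41 of the 65 (63.1%, background 5.81%). The same held without stroke for 55 (84.6%, background 6.47%). Across these 65 genes the responses correlated with r = 0.70, a description across genes that are not independent.

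Each library gave the same picture when its mean log2 CPM over the 65 genes was set against the mean of its own vehicle group. The stroke bexarotene libraries lay 0.421, 0.518 and 0.578 above their vehicle libraries, and the bexarotene libraries without stroke lay 0.663, 0.838 and 0.966 above theirs. The highest stroke value was thus below the lowest value without stroke, but the gap between them is smaller than the pooled SD within groups of 0.0896. That SD includes the vehicle groups, which spread less, and the bexarotene libraries without stroke spread most. The direction of the response was kept: 61 of the 65 genes were above vehicle with stroke, and all 65 without it. On the CPM scale the increment was lower with stroke for 54 of the 65 genes, with a median of 17.5 CPM against 26.1 CPM without stroke. On this scale an equal log2 fold change gives a smaller increment from a lower starting level. Whether a higher starting level limits the increment was not tested. N4bp2l1, 1 of the 65, had log2 fold changes of 0.67 with stroke and 0.66 without. Its increments were 30.0 and 63.2 CPM, from vehicle levels of 50.8 and 109 CPM. The count of 54 therefore includes differences in starting level. The median difference on the log2 scale ran between -0.35 and -0.14 when 1 library was left out, and the lower end came without bexarotene library 1 (no stroke).

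**Figure D1:**
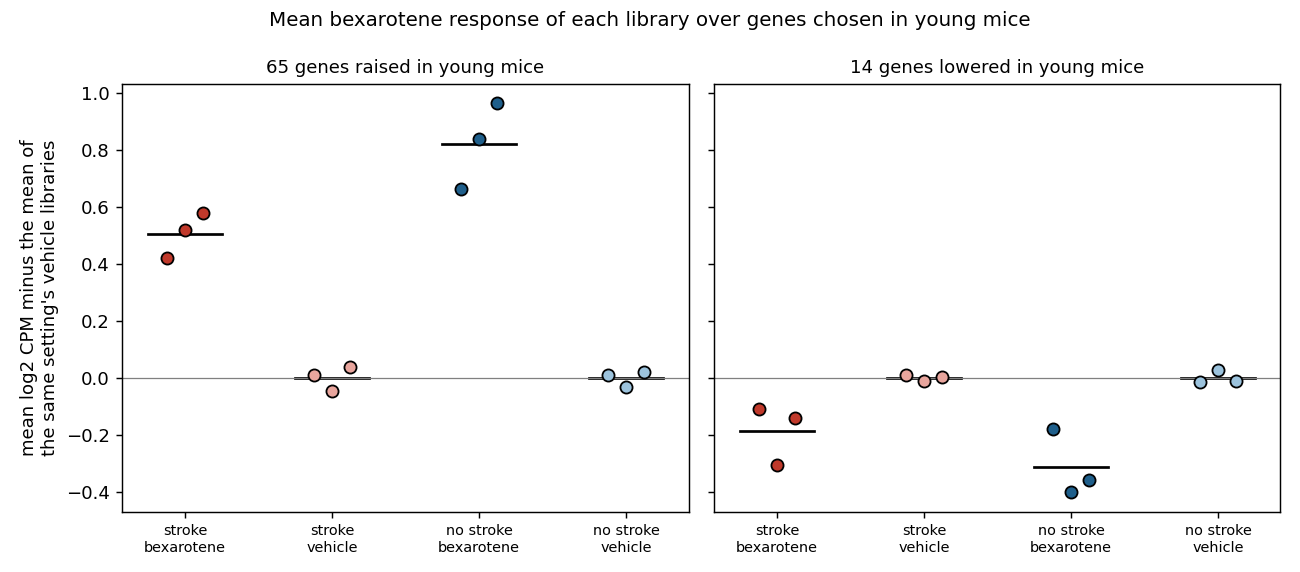
Mean log2 CPM of each aged library over the 65 genes raised (left) and the 14 genes lowered (right) by bexarotene in young mice, minus the mean of the vehicle libraries of the same setting; points are libraries and lines group means. For the raised genes the stroke bexarotene libraries (0.421 to 0.578) sit between their vehicle libraries and the bexarotene libraries without stroke (0.663 to 0.966).

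The 14 genes lowered in young mice were also nearer to 0 with stroke, with a median log2 fold change of -0.20 against -0.30 without it. The difference was positive for 13 of the 14 and none reached an unadjusted p under 0.05. Gpr183, a receptor for oxysterols that guides immune cells, picked after its values were seen, averaged 118 ± 13.5 CPM in stroke bexarotene and 184 ± 9.92 CPM in stroke vehicle libraries, and 209 ± 35.0 CPM in bexarotene and 333 ± 20.9 CPM in vehicle libraries (SD, n = 3 each). Its log2 fold changes of -0.64 and -0.67 were close to each other, and neither was called.

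Genes chosen on an aged response itself favour that response, and both choices are given for this reason. The 37 genes raised without stroke had a median of 0.35 with stroke and 1.05 without. The 8 genes raised with stroke had a median of 0.96 with stroke and 1.21 without, and the difference was negative for 5 of the 8, a share near the 49.7% of all genes tested. Of the 37, 11 were not called in young mice, and these had medians of 0.07 with stroke and 1.34 without.

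**Figure D2:**
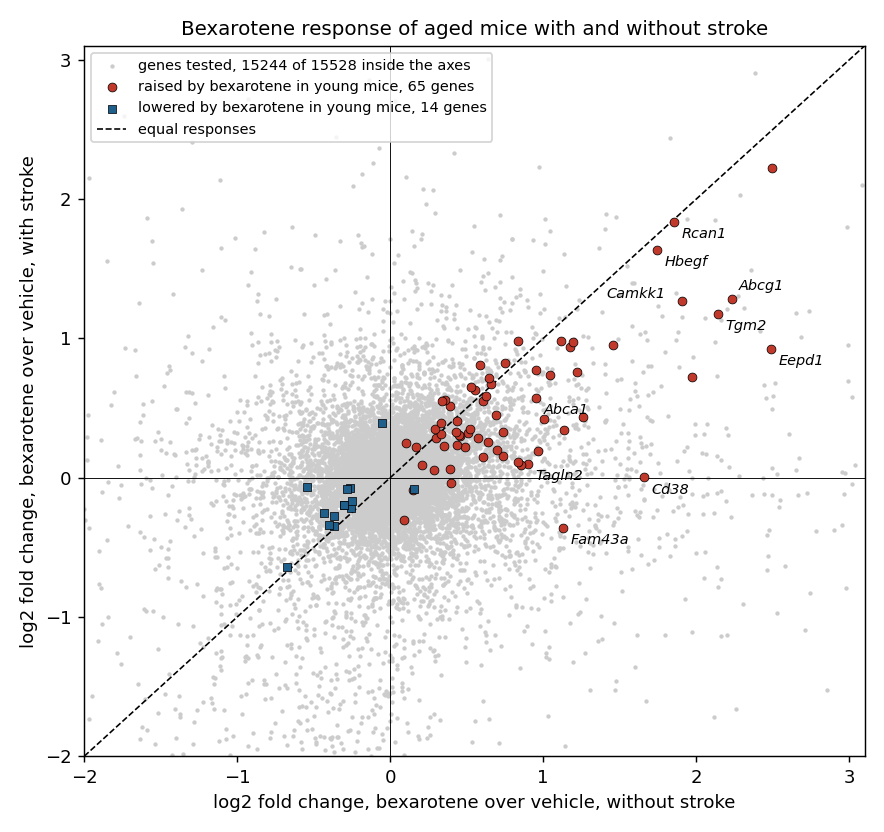
Log2 fold change of bexarotene over vehicle with stroke (vertical) against the same without stroke (horizontal) for 15244 of 15528 genes that lie inside the axes, with the genes raised (red circles) and lowered (blue squares) in young mice. Of the 65 red genes, 51 lie below the dashed line of equal responses; Rcan1 and Hbegf lie near it, and Cd38 and Fam43a lie near or below 0 on the vertical axis.

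Genes of cholesterol export are the best known LXR-RXR targets, and Abcg1 had the lowest p of the difference among the named genes. Abcg1 encodes a transporter that passes cholesterol to lipoproteins. It had 268, 297 and 357 CPM in stroke bexarotene and 126, 112 and 141 CPM in stroke vehicle libraries, against 383, 453 and 514 CPM in bexarotene and 99.4, 100.3 and 87.7 CPM in vehicle libraries. The drug groups do not overlap with their vehicle groups or with each other, and the vehicle level was somewhat higher with stroke (log2 fold change 0.40, adjusted p = 0.0169, edgeR, in a comparison that called 48.3% of genes). Abcg1 rose by 1.28 ± 0.13 (log2, SE) with stroke (adjusted p = 0.000157) and by 2.23 ± 0.14 without (adjusted p = 3.18e-08, both edgeR quasi-likelihood). It was called in both settings in 12 of 12 fits that each left out 1 library. The difference was -0.95 (95% interval -1.33 to -0.56). Its unadjusted p of 6.03e-05 was the lowest of all named genes, the adjusted p was 0.535 in edgeR, and DESeq2 called it (adjusted p = 0.0224). In CPM the increment was 181 with stroke and 354 without.

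Abca1, the transporter that loads cholesterol onto apolipoproteins, had 631, 661 and 781 CPM in stroke bexarotene and 423, 458 and 510 CPM in stroke vehicle libraries, against 901, 774 and 992 CPM in bexarotene and 499.9, 466 and 410.2 CPM in vehicle libraries. The vehicle groups overlap, and the drug groups barely do, with the stroke libraries at the lower side. Abca1 rose without stroke (0.96 ± 0.14 SE, adjusted p = 0.00366, edgeR; called in 11 of 12 fits that left out 1 library, adjusted p = 0.0534 without vehicle library 3) and was not called with stroke (0.58 ± 0.14, adjusted p = 0.227). The interval of the difference, -0.79 to 0.03, includes 0. The promoter of Abca1 holds a well known LXR-RXR element, 2 hexamers read in the same direction and spaced by 4 bases. The RefSeq promoter (build GRCm38.p6, chr4:53159846-53160145, minus strand, 250 bases before to 50 after the start) is shown because it carries this element. The capitals mark bases 184 to 198, which match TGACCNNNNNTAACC. Read on the other strand this is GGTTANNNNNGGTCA, the last 5 bases of each hexamer at their spacing.
Abca1: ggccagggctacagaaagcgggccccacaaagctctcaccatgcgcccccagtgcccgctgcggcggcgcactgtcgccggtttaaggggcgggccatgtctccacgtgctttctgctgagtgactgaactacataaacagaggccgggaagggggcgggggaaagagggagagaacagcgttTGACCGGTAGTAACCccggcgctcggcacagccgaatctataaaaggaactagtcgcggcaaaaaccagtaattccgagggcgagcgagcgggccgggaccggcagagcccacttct
Searched on both strands, this motif occurs in 16 of the 32851 promoters of that table (0.0487%). Of the 65 genes raised in young mice, 51 matched the table by symbol, with 71 promoters. Among these genes 1 (1.96%), Abca1, holds the motif in any of its promoters, a share per gene and not per promoter. The motif was written after the Abca1 element, so this hit was fixed in advance and the share cannot show enrichment. No promoter of Abcg1 or Tgm2 was available.

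Eepd1, a nuclease-like protein induced by LXR that promotes cholesterol efflux in macrophages, had 33.9, 65.7 and 53.0 CPM in stroke bexarotene and 30.7, 22.7 and 26.5 CPM in stroke vehicle libraries, against 88.0, 113 and 145 CPM in bexarotene and 18.0, 21.0 and 22.4 CPM in vehicle libraries. All groups are apart from their vehicle group, and the gap is far wider without stroke. Eepd1 rose without stroke (2.49 ± 0.27 SE, adjusted p = 0.000301, edgeR; called in 12 of 12 fits with 1 library left out) and had a log2 fold change of 0.93 ± 0.25 with stroke (adjusted p = 0.336). The difference was -1.57 (95% interval -2.34 to -0.80).

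Tgm2 shows that the scale matters. This gene encodes transglutaminase 2, which crosslinks proteins and takes part in clearance of dying cells, and it is a known retinoid target. It had 645, 1192 and 503 CPM in stroke bexarotene and 439, 238 and 360 CPM in stroke vehicle libraries, against 365, 378 and 357 CPM in bexarotene and 83.3, 79.8 and 86.0 CPM in vehicle libraries. The vehicle level was higher with stroke (log2 fold change 2.06, adjusted p = 1.06e-05, edgeR). On the log2 scale the bexarotene response was smaller with stroke (1.17 ± 0.26 SE, not called, against 2.14 ± 0.27, called in 12 of 12 fits with 1 library left out). In CPM the mean increment was larger with stroke, 435 against 284. Among the 65 genes raised in young mice, 11 had such a larger CPM increment.

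Over the 15 LXR-RXR targets tested, the medians were 0.21 with stroke and 0.13 without, and 9 of 15 had a negative difference, a share near the 49.7% of all genes. With stroke 1 of the 15 rose (Abcg1), and without stroke 3 rose (Abca1, Abcg1 and Eepd1). Mylip, which marks the LDL receptor for breakdown, had a log2 fold change of 0.82 ± 0.16 SE with stroke and 0.47 ± 0.16 without, and the small GTPase gene Arl4c had 0.59 ± 0.15 and 0.62 ± 0.15. None of these 4 values was called. Srebf1, the regulator of fatty acid synthesis, had 0.06 and 0.30, and the lipid carrier Apoe had 0.23 and -0.26, again with no call. Lpl, the lipase that frees fatty acids from lipoproteins, had estimates that went the other way from Abcg1, 0.48 and -0.95. The unadjusted p of the difference was 0.0373 (edgeR), and neither response was called. Lpl had 249, 188 and 192 CPM in stroke bexarotene and 106, 106 and 241 CPM in stroke vehicle libraries. Without stroke it had 72.1, 70.4 and 54.7 CPM in bexarotene and 43.2, 200 and 139 CPM in vehicle libraries. Drug and vehicle libraries overlap in both settings. A lower response with stroke was thus seen in part of the LXR-RXR list and not across it.

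Of 19 PPAR-RXR targets tested, 15 had a negative difference (49.7% of all genes), with medians of 0.02 with stroke and 0.17 without. Cpt1a, the gate of fatty acid entry into mitochondria, had 107, 151 and 142 CPM in stroke bexarotene and 127, 112 and 109 CPM in stroke vehicle libraries, against 81.0, 70.8 and 85.2 CPM in bexarotene and 52.2, 43.8 and 49.9 CPM in vehicle libraries. The groups overlap with stroke and are apart without it. Cpt1a rose without stroke (0.70 ± 0.14 SE, adjusted p = 0.0462, edgeR; called in 2 of 12 fits with 1 library left out, adjusted p up to 0.281) and had 0.20 ± 0.13 with stroke. The scavenger receptor gene Cd36 had -0.07 with stroke and 0.53 without (difference -0.61, unadjusted p = 0.0143), and neither response was called. Angptl4, a lipase inhibitor, was measured well only with stroke. It had 22.5, 24.5 and 28.5 CPM in stroke bexarotene and 10.9, 5.00 and 4.99 CPM in stroke vehicle libraries, and 0.309 to 2.38 CPM in bexarotene and 0.0978 to 0.576 CPM in vehicle libraries, where 3 counts correspond to 0.253 to 0.321 CPM. The stroke groups do not overlap, yet the gene was not called (1.85 ± 0.45 SE, adjusted p = 0.231, edgeR). The authors' deposited table lists it with a log2 fold change of 1.65 with stroke.

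RAR-RXR targets were few in number, with 6 of 9 tested and medians of 0.33 with stroke and 0.70 without. With stroke 1 of the 6 rose (Hic1, described below), and without stroke 1 rose (Tgm2). The difference was negative for 4 of the 6 (49.7% of all genes). Dhrs3, a reductase that lowers retinoic acid, had log2 fold changes of 0.46 ± 0.12 SE with stroke and 0.28 without, and Rara, which encodes a retinoic acid receptor, had -0.26 and 0.95, with no call. The receptors themselves were present in both settings. Rxra had 57.6, 48.4 and 50.9 CPM in stroke bexarotene and 62.6, 50.3 and 60.2 CPM in stroke vehicle libraries, against 72.9, 71.2 and 77.3 CPM in bexarotene and 91.0, 90.4 and 101.9 CPM in vehicle libraries. Rxrb had 53.7 to 69.2 CPM in the 6 stroke libraries and 94.4 to 110 CPM in the 6 others. The LXR gene Nr1h2 differed little (53.4 to 66.1 CPM and 62.7 to 70.7 CPM). The other LXR gene, Nr1h3, had 5.89 to 18.1 CPM in the stroke libraries and 0.725 to 2.49 CPM in the others. None of the 14 receptor genes tested was called for bexarotene in either setting.

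**Figure D3:**
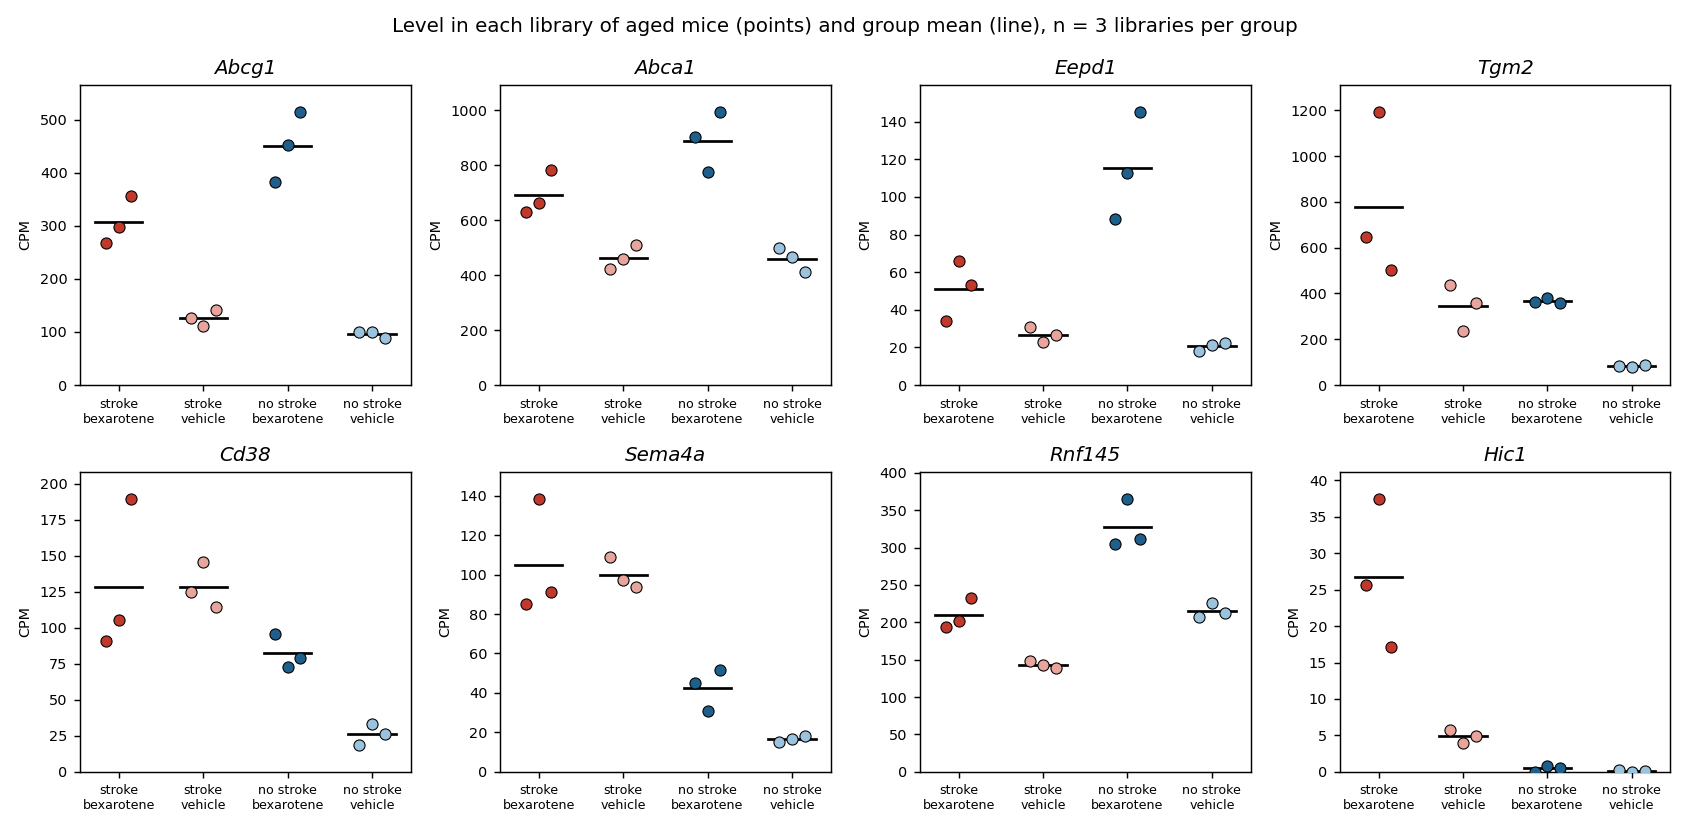
CPM of 8 genes in each of the 12 aged libraries (points) with group means (lines), on linear axes from 0. Abcg1, Abca1 and Eepd1 have lower mean drug levels with stroke (308, 691 and 50.9 CPM, against 450, 889 and 115 CPM without) while their vehicle levels differ far less; Tgm2, Cd38 and Sema4a start from a higher vehicle level with stroke; Rnf145 lies above its vehicle libraries in both settings, and Hic1 is measured well only with stroke.

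A further group of genes rose without stroke and had overlapping libraries with stroke, where the vehicle level was already above the drug level of mice without stroke. Cd38, an enzyme that consumes NAD, had 90.9, 105 and 189 CPM in stroke bexarotene and 125, 145 and 114 CPM in stroke vehicle libraries, against 95.7, 72.5 and 79.1 CPM in bexarotene and 18.7, 33.1 and 26.6 CPM in vehicle libraries. The stroke groups overlap and the others do not. Cd38 rose without stroke (1.66 ± 0.27 SE, adjusted p = 0.0213, edgeR; called in 9 of 12 fits with 1 library left out, adjusted p = 0.0825 without bexarotene library 3, 0.0826 without vehicle library 1 and 0.104 without vehicle library 3). With stroke its log2 fold change was 0.003 ± 0.25, and the difference was -1.66 (95% interval -2.44 to -0.87). The Cd38 promoter (RefSeq, GRCm38.p6, chr5:43868559-43868858, plus strand) is given beside that of Abca1, since no copy of the Abca1 element was found in it. Its capitals mark the single GGGTCA hexamer, read on the reverse strand at bases 259 to 264, and AGGTCA was not found on either strand.
Cd38: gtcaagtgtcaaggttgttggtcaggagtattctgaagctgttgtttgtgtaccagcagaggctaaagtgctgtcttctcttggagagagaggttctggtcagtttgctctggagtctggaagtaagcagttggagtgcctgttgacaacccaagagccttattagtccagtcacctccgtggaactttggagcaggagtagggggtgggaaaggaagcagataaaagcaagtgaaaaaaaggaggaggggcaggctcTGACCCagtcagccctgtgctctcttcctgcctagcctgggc
GGGTCA, searched on both strands, occurs in 13.7% of all promoters in the table and in 12 of the 51 matched genes raised in young mice (23.5%). AGGTCA occurs in 16.3% of all promoters and in 7 of those 51 genes (13.7%). A gene was counted if any of its promoters held the hexamer (71 promoters for the 51 genes). The shares of genes and of promoters are therefore unlike measures.

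Sema4a, a semaphorin of immune cells, had 85.2, 138 and 91.3 CPM in stroke bexarotene and 109, 97.4 and 93.5 CPM in stroke vehicle libraries, against 45.1, 30.8 and 51.5 CPM in bexarotene and 15.2, 16.7 and 18.2 CPM in vehicle libraries. It rose without stroke (1.34 ± 0.22 SE, adjusted p = 0.0154, edgeR) and was called in 8 of 12 fits with 1 library left out, with an adjusted p up to 0.117. The chemokine gene Ccl6 had 979, 1324 and 1004 CPM in stroke bexarotene and 899, 939.9 and 1049.8 CPM in stroke vehicle libraries, against 398, 422 and 589 CPM in bexarotene and 206, 259 and 256 CPM in vehicle libraries. Its call without stroke (0.97 ± 0.19, adjusted p = 0.0474) was kept in 2 of 12 such fits, with an adjusted p up to 0.299. The differences were -1.27 (95% interval -1.90 to -0.64) for Sema4a and -0.77 (-1.34 to -0.21) for Ccl6. Tagln2, an actin-binding protein gene picked after its values were seen, averaged 288 ± 75.5 CPM and 269 ± 30.5 CPM in stroke bexarotene and stroke vehicle libraries, and 73.4 ± 4.41 CPM and 39.3 ± 1.32 CPM in bexarotene and vehicle libraries (SD, n = 3 each). Its response was 0.10 with stroke and 0.90 without, where it was called in 7 of 12 fits with 1 library left out (adjusted p up to 0.143).

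Fam43a lacked such a difference in vehicle level. It had 9.33, 13.3 and 14.2 CPM in stroke bexarotene and 19.2, 13.2 and 14.5 CPM in stroke vehicle libraries, against 17.6, 27.5 and 37.9 CPM in bexarotene and 11.4, 10.6 and 15.9 CPM in vehicle libraries. The stroke groups overlap, and without stroke every drug library is above every vehicle library. Neither response was called (-0.36 and 1.13), and the difference was -1.49 (95% interval -2.20 to -0.79, unadjusted p = 0.000313).

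For other genes the estimates in the 2 settings lay close together. Rnf145, a sterol-responsive ubiquitin ligase and LXR target, had 194, 202 and 233 CPM in stroke bexarotene and 148, 143 and 139 CPM in stroke vehicle libraries, against 305, 365 and 312 CPM in bexarotene and 207, 226 and 212 CPM in vehicle libraries. Both drug groups lie above their vehicle groups. Rnf145 rose by 0.55 ± 0.10 SE with stroke (adjusted p = 0.0443) and by 0.61 ± 0.10 without (adjusted p = 0.00852, both edgeR), and the difference was -0.06 (95% interval -0.35 to 0.22). The receptor tyrosine kinase gene Epha2 rose by 0.97 ± 0.16 with stroke and 1.19 ± 0.17 without (-0.22, -0.70 to 0.26). Calls of these genes with stroke were kept in 5 of 12 (Rnf145) and 7 of 12 (Epha2) fits with 1 library left out, with adjusted p up to 0.192 and 0.152 (edgeR). Without stroke they were kept in 9 of 12 (Rnf145, adjusted p up to 0.0768) and 12 of 12 (Epha2). Mmd, a gene of macrophage maturation, and St3gal5, which makes the ganglioside GM3, rose in both settings too, with a smaller size under stroke: 0.95 ± 0.16 against 1.45 ± 0.17 for Mmd and 0.76 ± 0.12 against 1.22 ± 0.13 for St3gal5. With stroke these calls were kept in 6 of 12 and 8 of 12 fits (adjusted p up to 0.192 and 0.125), and without stroke in 12 of 12 for both. Rcan1, an inhibitor of calcineurin picked after its values were seen, had responses of 1.84 ± 0.46 and 1.86 ± 0.46, and its interval of -1.39 to 1.36 is too wide to show that they were alike.

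Hic1 and Engase were called with stroke and not without it. Hic1, a transcriptional repressor gene, had 25.7, 37.5 and 17.1 CPM in stroke bexarotene and 5.80, 3.96 and 4.94 CPM in stroke vehicle libraries, against 0, 0.849 and 0.507 CPM in bexarotene and 0.272, 0 and 0.0959 CPM in vehicle libraries. Without stroke the values lie around 3 counts, so a difference was not detectable at this depth. With stroke it rose by 2.44 ± 0.44 SE (adjusted p = 0.0472, edgeR; called in 4 of 12 fits with 1 library left out, adjusted p up to 0.258). Engase, an enzyme that cleaves N-glycans, had 47.7, 35.5 and 41.4 CPM in stroke bexarotene and 24.4, 25.7 and 26.2 CPM in stroke vehicle libraries, against 82.9, 110 and 106 CPM in bexarotene and 70.2, 70.2 and 72.7 CPM in vehicle libraries. Drug libraries were above vehicle libraries in both settings. Engase rose with stroke (0.71 ± 0.13, adjusted p = 0.0472; called in 3 of 12 fits, adjusted p up to 0.22) and had 0.49 ± 0.13 without, and the difference of 0.22 had an interval of -0.16 to 0.60.

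Frmd6, a cytoskeletal protein gene linked to Hippo signalling, was the only gene that fell with stroke in the edgeR test (DESeq2 called 21 lower). It had 2.57, 2.04 and 2.13 CPM in stroke bexarotene and 6.14, 7.13 and 6.62 CPM in stroke vehicle libraries, against 4.94, 5.35 and 4.66 CPM in bexarotene and 4.35, 5.38 and 5.47 CPM in vehicle libraries. The stroke groups are far apart at a low level, and the others overlap. Frmd6 fell by 1.55 on the log2 scale with stroke (SE 0.21, adjusted p = 0.0073, edgeR; called in 10 of 12 fits with 1 library left out, adjusted p = 0.0673 without stroke bexarotene library 3 and 0.0642 without stroke vehicle library 2). Without stroke its log2 fold change was -0.02, and the difference was -1.53 (95% interval -2.17 to -0.89). The 3 genes that fell without stroke were the sulfotransferase gene Chst2 (-1.28 ± 0.26), the stress-induced Nupr1 (-0.67 ± 0.13) and Tent5c (-0.55 ± 0.11), which extends poly(A) tails. Their responses with stroke were -0.42, -0.22 and -0.08, and the intervals of all 3 differences lay above 0 (0.13 to 1.61, 0.08 to 0.82 and 0.14 to 0.80). Their calls were kept in 1, 5 and 2 of 12 fits with 1 library left out, with adjusted p up to 0.299, 0.214 and 0.346.

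**Figure D4:**
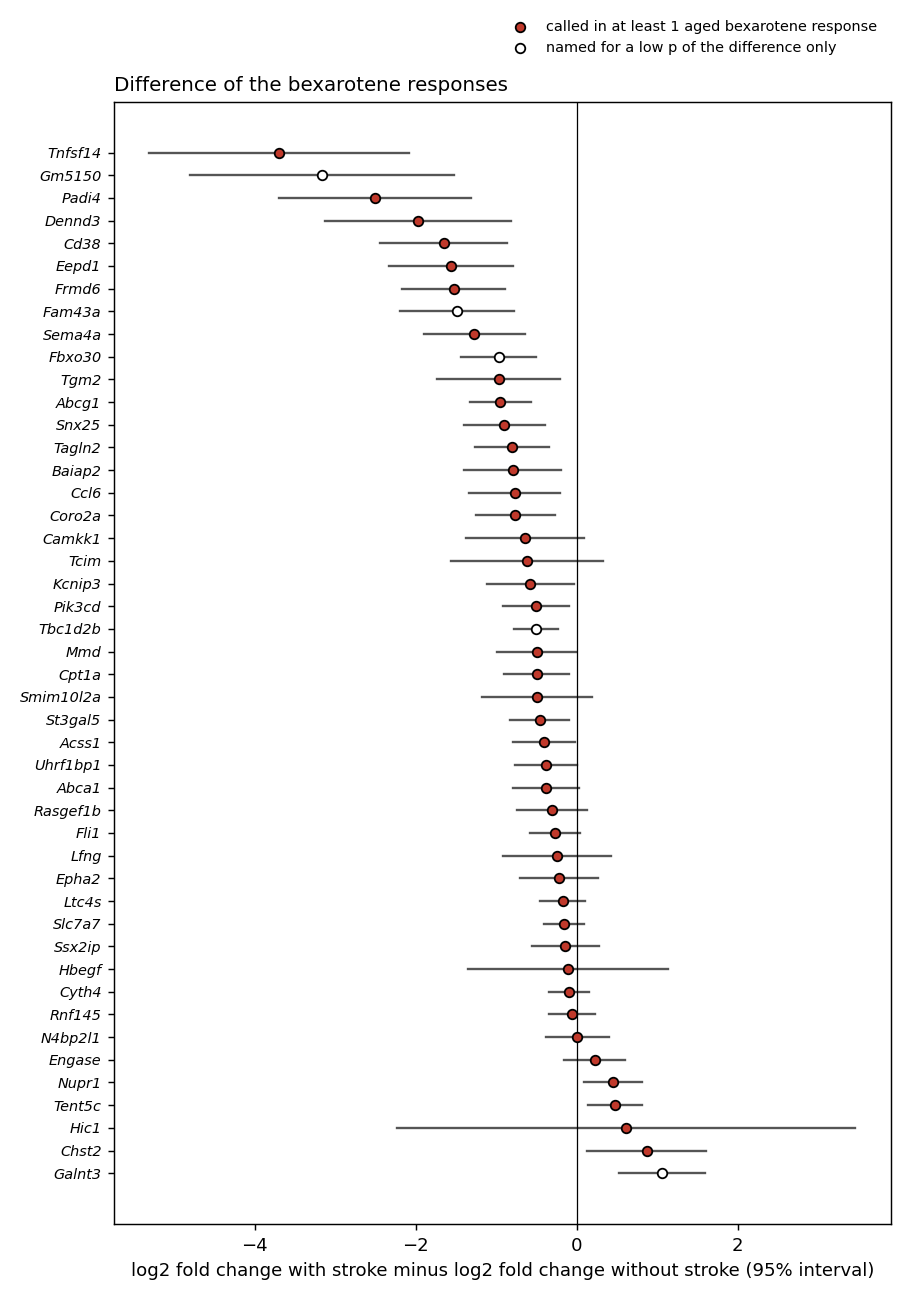
Difference of the bexarotene responses (log2 fold change with stroke minus log2 fold change without) with 95% intervals for 46 of the genes that were called in an aged response (red) or named for a low p of the difference (white) and reached 5 CPM in a group. The estimate is below 0 for 39 of the 46; 24 intervals lie wholly below 0 and 4 wholly above, with no adjustment for the number of genes. Most of these genes were chosen for a call without stroke or for a low p of the difference, a choice that favours values below 0.

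Of the 12 genes named for the lowest p of the difference, 11 had a negative difference. Among them were 3 with under 2 CPM in every vehicle library without stroke. Padi4, which encodes an enzyme of neutrophil extracellular traps, had 9.67, 16.9 and 14.7 CPM in stroke bexarotene and 14.6, 18.5 and 17.1 CPM in stroke vehicle libraries, against 3.91, 4.76 and 8.72 CPM in bexarotene and 1.36, 1.57 and 0.768 CPM in vehicle libraries. Tnfsf14, a ligand of the tumour necrosis factor family, had 6.14, 12.2 and 7.28 CPM and 10.9, 11.8 and 12.9 CPM in stroke bexarotene and stroke vehicle libraries, against 1.34, 2.21 and 2.84 CPM and 0.181, 0.391 and 0.0959 CPM in bexarotene and vehicle libraries. The vehicle values of Tnfsf14 without stroke lie around 3 counts, so the size of its change is uncertain. Both rose without stroke (fitted 2.22 ± 0.45 SE and 3.21 ± 0.65, adjusted p = 0.0462 for both, edgeR), and each call was kept in 2 of 12 fits with 1 library left out (adjusted p up to 0.299 and 0.263). The third, Gm5150, had log2 fold changes of -0.39 with stroke and 2.78 without.

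For the 12 neutrophil markers tested, the summed level was 857, 1024 and 3337 CPM in stroke bexarotene and 971, 2326 and 1303 CPM in stroke vehicle libraries, against 1456, 1014 and 1962 CPM in bexarotene and 920.3, 837 and 665 CPM in vehicle libraries, although Ly6G-positive cells had been depleted. The median response of these markers was 0.29 with stroke and 1.65 without, and none of the 12 was called. S100a8, a calcium-binding protein of neutrophils, had 155, 245 and 1112 CPM in stroke bexarotene and 196, 795 and 349.9 CPM in stroke vehicle libraries, against 247, 146 and 386 CPM in bexarotene and 104, 89.6 and 46.8 CPM in vehicle libraries. With the neutrophil marker score as a covariate, an alternative chosen after seeing the data, 8 genes were called without stroke and 8 with it. Abcg1, Eepd1, Camkk1, Epha2, Mmd, St3gal5 and Tgm2 were still among the 8 called without stroke. Over the 65 genes raised in young mice the median difference was -0.19 with this covariate and 51 of 65 were lower with stroke, but the number lower at an unadjusted p under 0.05 was 12, against 18 without the covariate.

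Markers of infiltrating monocytes also had a higher median response without stroke. Of 16 tested, 1 was above vehicle with stroke and 14 without, with medians of -0.25 and 0.59, and 15 of 16 had a negative difference (49.7% of all genes). None was called in either response. The chemokine receptor gene Ccr1 had a response of -0.25 with stroke and 0.71 without. Ccr2, the receptor that brings monocytes out of marrow, had 434 to 920 CPM in stroke bexarotene and 422 to 1004 CPM in stroke vehicle libraries, and 40.3 to 75.7 CPM in bexarotene and 29.1 to 51.6 CPM in vehicle libraries, so both pairs overlap. The part of this cell mixture in the difference of responses was not tested beyond a covariate: with the monocyte marker score as a covariate, chosen after seeing the data, the median difference over the 65 genes was -0.24, with 51 of 65 lower, and 10 were lower at an unadjusted p under 0.05, against 18 without the covariate. The 13 border-associated macrophage markers had medians of -0.36 with stroke and 0.04 without, and 11 of 13 had a negative difference, the reductase gene Cbr2 with -0.87 (unadjusted p = 0.00197).

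Markers of the choroid plexus, which makes cerebrospinal fluid, varied between libraries in every group. The summed level of the 8 genes tested, of 10 listed, was 97.5 to 518 CPM in stroke bexarotene and 648 to 2186 CPM in stroke vehicle libraries. It was 299 to 1081 CPM in bexarotene and 120 to 1659 CPM in vehicle libraries. The 8 tested had a median response of -1.96 with stroke and -0.30 without, and none was called. With this marker score as a covariate the median difference over the 65 genes was -0.17, with 51 of 65 lower and 16 at an unadjusted p under 0.05.

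Lists of genes outside the drug pathways also had different medians in the 2 settings, each below the threshold for every member unless named. Of 18 immediate early genes, which mark recent stimulation of cells, 0 were above vehicle with stroke and 15 without, with medians of -0.29 and 0.33. Their summed level was 5557, 9678 and 7896 CPM in stroke bexarotene and 10600, 7238 and 8529 CPM in stroke vehicle libraries. Without stroke it was 4814, 3712 and 4576 CPM in bexarotene and 4753, 2818 and 2679 CPM in vehicle libraries. The groups overlap in both settings. The endothelial and immune regulator Klf2 had -0.15 and 0.82 (unadjusted p = 0.0188 for the difference). All 30 ribosomal protein genes were above vehicle with stroke, with a median of 0.12, and 5 were without stroke, with a median of -0.08. The difference was positive for 30 of 30 genes that are not independent (negative for 49.7% of all genes tested). Of them 1, Rpl37, reached an unadjusted p under 0.05 (0.0374). Their summed level was 4901, 5159 and 4708 CPM in stroke bexarotene and 4242, 4356 and 4957 CPM in stroke vehicle libraries. Without stroke it was 2015, 2242 and 1867 CPM in bexarotene and 1994, 2319 and 2189 CPM in vehicle libraries. Drug and vehicle libraries overlap in both settings. Of 11 heat shock genes 0 were above vehicle in either setting, with medians of -0.13 with stroke and -0.76 without, and their summed level in vehicle libraries without stroke was 3844, 4790 and 8472 CPM, with library 3 apart.

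Genes of disease-associated microglia, a state that forms around damaged tissue, were above vehicle for 13 of 21 with stroke and for 4 of 21 without. The medians were 0.15 and -0.22, and 18 of 21 had a positive difference. Ccl6 is a member and was the only one called. Itgax, which encodes the integrin CD11c, had 58.3, 31.2 and 64.6 CPM in stroke bexarotene and 40.0, 19.9 and 45.5 CPM in stroke vehicle libraries, against 17.2, 16.6 and 12.8 CPM in bexarotene and 14.8, 39.1 and 30.0 CPM in vehicle libraries. Drug and vehicle libraries overlap in both settings (difference 1.40, unadjusted p = 0.0142). Spp1, the gene of osteopontin, had 5785 to 8123 CPM and 4385 to 11529 CPM in stroke bexarotene and stroke vehicle libraries, and 95.3 to 132 CPM and 80.0 to 514 CPM in bexarotene and vehicle libraries. Among class I antigen presentation genes, H2-K1 had 0.40 with stroke and -0.28 without (difference 0.68, unadjusted p = 0.00338) and its partner B2m had 0.44 and -0.23 (0.67, unadjusted p = 0.00382). Reads of class I genes such as H2-K1 may be split wrongly between near-identical copies, which leaves its values uncertain. For both genes, drug and vehicle libraries overlap in both settings. Without stroke, H2-K1 had 465, 403 and 393 CPM in bexarotene and 420, 567 and 542 CPM in vehicle libraries. B2m had 3901, 4158 and 3641 CPM and 3792, 4898 and 5009 CPM there, so vehicle library 1 lay among the drug libraries for both. Vegfa, the angiogenic growth factor, had 98.6, 176 and 41.9 CPM in stroke bexarotene and 41.7, 16.6 and 42.1 CPM in stroke vehicle libraries, against 4.53, 2.63 and 3.65 CPM in bexarotene and 4.80, 13 and 5.37 CPM in vehicle libraries. Its difference was 2.76 (unadjusted p = 0.0033), the stroke groups overlap, and neither response was called.

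**Figure D5:**
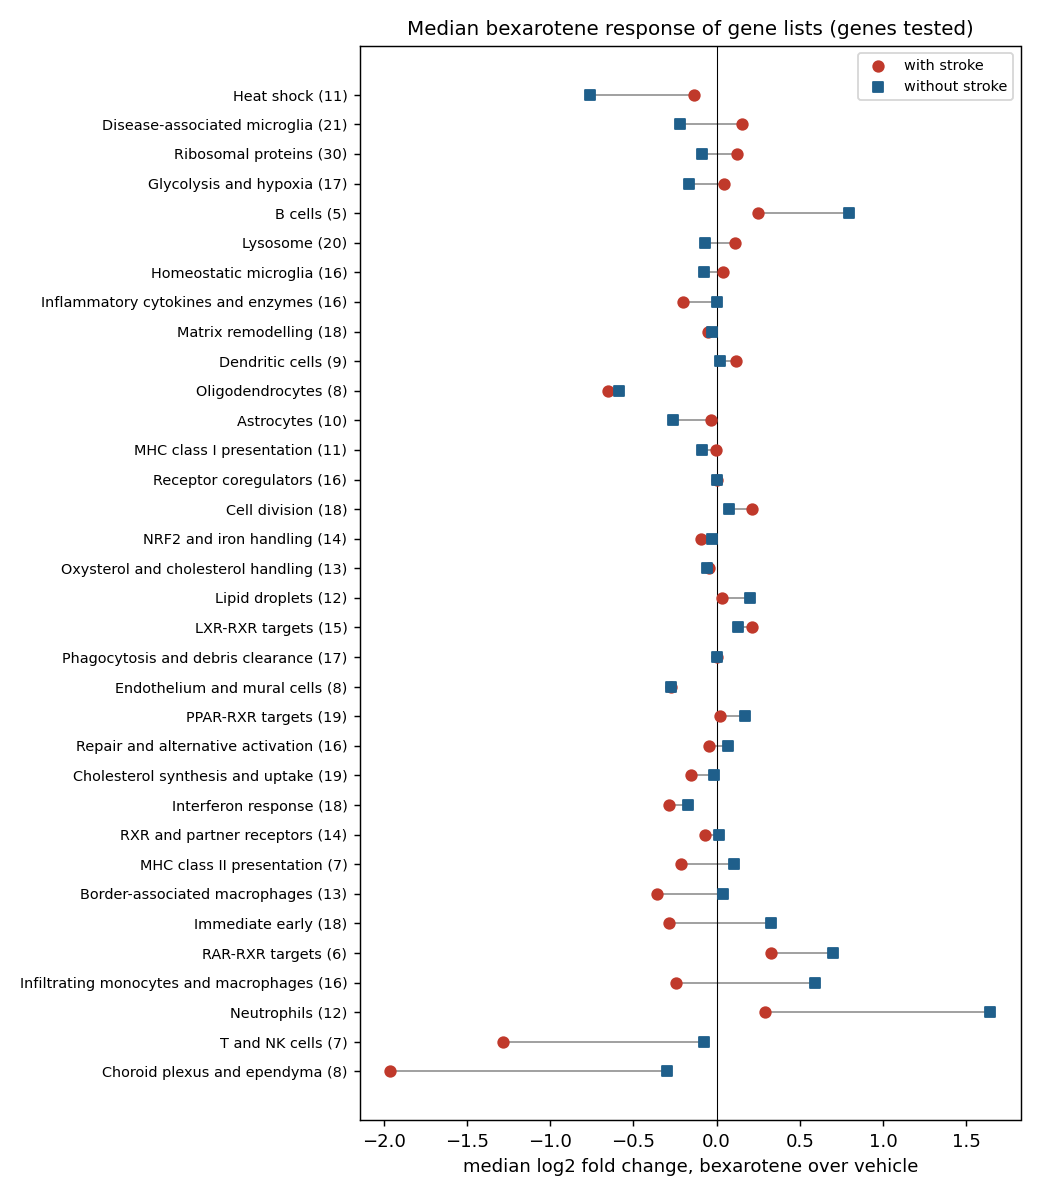
Median log2 fold change of bexarotene over vehicle for 34 lists of at least 5 tested genes (number tested in brackets), with stroke (red circles) and without stroke (blue squares), ordered by the median difference. Neutrophil (0.29 and 1.65), monocyte (-0.25 and 0.59) and choroid plexus markers (-1.96 and -0.30) lie far apart in the 2 settings, LXR-RXR targets (0.21 and 0.13) close together.

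Genes whose libraries were fully apart in opposite directions were rare. In 25 genes (0.161%) every bexarotene library was above every vehicle library with stroke and below without, and in 26 (0.167%) the reverse held. The enzyme gene Galnt3, which starts O-glycans, was of the first kind, with 12.6, 10.9 and 11.1 CPM in stroke bexarotene and 8.11, 8.29 and 8.72 CPM in stroke vehicle libraries, against 8.54, 8.07 and 5.68 CPM in bexarotene and 10.1, 13.6 and 9.98 CPM in vehicle libraries (difference 1.05, 95% interval 0.52 to 1.59, unadjusted p = 0.000579). The ubiquitin ligase component Fbxo30 and the GTPase regulator Tbc1d2b had differences of -0.97 and -0.51. Of the 65 genes raised in young mice, 0 were of either opposite kind and 36 were above vehicle without overlap in both settings, as were 150 of all genes tested (0.966%).

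The authors' deposited tables list 96 genes for bexarotene with stroke (43 higher and 53 lower) and 149 without (122 higher and 27 lower). The tables have 22 genes in common, 22.9% of the first and 14.8% of the second, all with the same sign. For 13 of the 22 the listed log2 fold change is smaller in size with stroke. Abcg1 is listed with 1.22 with stroke and 2.20 without, and Abca1 with 0.52 and 0.92. Cd38 is listed without stroke only (1.60). Rcan1 is an exception in the other direction, listed with 1.77 with stroke and 0.58 without, where its error in the table is 0.755. Fold changes of both tables had the same sign as those computed from the counts for 100% of the genes they list.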

How the data were processed

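Per the labels' protocols, brains were dissociated with papain and DNase I, cleared on Percoll, passed over Ly6G and CD11b beads, and SMART-Seq V4 PLUS libraries were made. The authors deposited whole-number counts per gene for 18 libraries, not normalized, and tables of log2 fold changes with p-values and adjusted p-values that list only genes under an adjusted p of 0.05. Per the submitters' processing notes, Trimmomatic 0.40, STAR 2.7.10a, GATK, R 4.4.2 and build GRCm39 were used. The sources used here do not say what each tool did, which annotation was counted or whether strand was used. Overlapping, antisense and near-identical genes may therefore share reads. The method behind the deposited tables is not given either.

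Symbols came from a reference name table and the deposited tables for 52033 of 57010 genes (the others hold 0.326% of counts and were tested under their identifiers). Counts were fitted with edgeR 4.0.16 (R 4.3.3): filterByExpr left 15528 genes, with TMM scaling, and 1 robust quasi-likelihood model of 18 libraries in 6 groups had 12 residual degrees of freedom. A gene is called at a Benjamini-Hochberg adjusted p under 0.05 over all genes tested. SE and 95% intervals of log2 fold changes come from the F statistic. CPM are per TMM-scaled library total, and scores over genes use log2 CPM with a prior count of 2. A count of 3 equals 0.102 to 0.321 CPM in the aged libraries, which covers counting error only. Replicate libraries of a group differed by more than sampling noise (chi-square per degree of freedom 7.25 to 40.3). The labels call them biological replicates.

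Named genes are, for the difference, the 12 with the lowest p and at least 5 CPM in a group (fewer than 8 were called). For each aged response they are the 8 called of each sign with the largest change, at least 10 CPM and no overlap. Up to 4 members of each of 35 lists, called list members and a few fixed genes were added. Members, lists and rules were chosen with earlier results of these data known. Alternatives were DESeq2 1.42.0, limma voom 3.58.1, other scaling and filters, thinned stroke libraries, the aged libraries alone, replicate blocks, an adjusted p under 0.10, and each aged library left out. Marker scores as covariates were added after seeing the data. The model was tested on simulated data. The young and age comparisons of the deposited tables were not used here. A few genes that the rule names are not reported here.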

Additional observations from a re-analysis of the deposited data

Results flagged for a closer look

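A test of the difference itself passed for 9 genes in DESeq2, each with a negative difference (the log2 fold change with stroke below that without), while edgeR called none of them (adjusted p of 0.535 to 0.916). For genes described above, the DESeq2 difference was -0.94 for Abcg1, -1.65 for Cd38, -1.55 for Eepd1, -1.52 for Frmd6, -2.51 for Padi4 and -3.74 for Tnfsf14 (log2, adjusted p of 0.0224 to 0.0392). Camk2b, a subunit of a calcium-dependent kinase, had -2.85, with 1.28, 0.725 and 2.78 CPM in stroke bexarotene and 2.26, 1.1 and 1.84 CPM in stroke vehicle libraries, against 3.60, 3.31 and 3.35 CPM in bexarotene and 0.0906, 0.978 and 0.480 CPM in vehicle libraries. Hecw2 and ENSMUSG00000121513 have fitted differences of -6.95 and -7.68 that are no measure of size, because Hecw2 is at 0 in all 3 vehicle libraries without stroke and ENSMUSG00000121513 at 0 in all 3 stroke bexarotene libraries.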

How the results depend on the processing

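The difference of the bexarotene responses was called for 0 genes with edgeR, with DESeq2 for 9, all with a negative difference, and without a filter on low counts for 256. In the fit without that filter the prior degrees of freedom of the dispersions were infinite (6.23 with the filter), so it treats gene dispersions as known. All other alternatives, the 12 fits without 1 library included, called 0 genes, with 516 to 941 genes at an unadjusted p under 0.05. The numbers called with stroke and without it (9 and 40) were 59 and 97 with DESeq2, 29 and 18 with limma voom, 419 and 339 with no filter, and 16 and 61 at an adjusted p under 0.10. They were 6 and 24 with RLE size factors, 4 and 36 with the 12 aged libraries alone, and 4 and 15 with the monocyte covariate. With the neutrophil covariate they were 8 and 8. Without 1 library they ran from 1 to 17 and from 9 to 41. The excess of calls without stroke thus held in most of these settings and not under limma voom, without a filter or with the neutrophil covariate. The cause was not tested.

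Over the genes raised in young mice the median difference stayed below 0 in every alternative for which it was computed. With 1 library left out it ran from -0.353 (bexarotene library 1, no stroke) to -0.144 (vehicle library 2, no stroke). It was -0.38 over the 31 raised over 2-fold. This size was not computed with DESeq2 or limma voom fold changes, thinned stroke libraries, the aged libraries alone, other filters or a block nested in stroke status. Replicate numbers are shared by the groups, and the labels do not say whether they pair the libraries. Same-numbered bexarotene and vehicle libraries correlated at 0.0438, -0.204 and -0.163 with stroke and 0.221, 0.253 and -0.0998 without. Libraries of unlike number correlated at -0.112 to 0.233 with stroke and -0.328 to 0.151 without. Without stroke, same-numbered libraries 1 and 2 thus lay above every unlike pair. Whether libraries of 1 number share a batch was not tested. With the replicate block 20 genes were called with stroke and 50 without, 0 for the difference, and the median difference was -0.20. With a block nested in stroke status the calls were 6, 29 and 0.

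With 3 libraries a group, single differences have wide intervals. The sizes fitted for genes under about 1 CPM in the vehicle libraries without stroke, Tnfsf14 and Camk2b among them, are uncertain. Stroke libraries thinned to the depth of the others gave 6 and 38 calls.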
